A study of Mus musculus with 30 samples.

Results

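Spermidine in the drinking water was compared with no spermidine in the non-tumor colon of wild-type (WT) mice that had gone through the azoxymethane and dextran sulfate sodium (AOM-DSS) model of colitis-associated cancer. The comparison used 6 of the 30 libraries of the study. They were chosen by their labels: the 3 non-tumor colon libraries of WT mice given AOM-DSS with spermidine, and the 3 non-tumor colon libraries of WT mice given AOM-DSS without it. The whole study sequenced colon RNA of male C57BL/6 WT and Smox-/- mice, 8 to 12 weeks old, with or without AOM-DSS and with or without spermidine, and its design text gives 3 mice a group. In both groups compared here, mice had 1 intraperitoneal dose of 12.5 mg/kg azoxymethane, a DNA-alkylating carcinogen. They then had 3 cycles of 4% DSS, a polymer that injures the colonic epithelium, for 5 days each from days 5, 26 and 47. The mice with spermidine drank 14 mM spermidine for 56 days. RNA was taken after 56 days, so both groups had finished the last DSS cycle a few days before. The position along the colon from which each piece was cut is not given in the labels.

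Spermidine is a polyamine, a small cationic metabolite that cells take up or make from ornithine through putrescine. Ornithine decarboxylase (Odc1) makes putrescine, S-adenosylmethionine decarboxylase (Amd1) supplies the aminopropyl donor, and spermidine synthase (Srm) and spermine synthase (Sms) add aminopropyl groups. Spermine oxidase (Smox) turns spermine back into spermidine and releases hydrogen peroxide and an aldehyde, and spermidine itself is the source of hypusine on the translation factor Eif5a. High polyamine levels induce antizymes (Oaz1, Oaz2), which lower Odc1 protein and block uptake, and antizyme inhibitors (Azin1, Azin2) oppose them. Much of this control acts on translation and protein stability, which RNA counts do not show.

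The 6 libraries held 33060607 to 64655937 counts, the lowest in AOM-DSS with spermidine replicate 3. Levels are given as CPM, each count scaled to the effective total of its library, which can be compared between libraries but not between genes of different length. All 6 libraries carried colon markers: the mean log2 CPM of 18 colonocyte genes was 7.01, 7.53 and 7.75 with spermidine and 6.98, 7.73 and 8.72 without it, and the distal hindgut gene Hoxb13 was at 368 to 591 CPM. Over the 1000 most variable genes of the 30 libraries, the first principal component, with 47.4% of the variance, put the 3 spermidine libraries at 1.97, -10.8 and -11.9, the 3 AOM-DSS libraries at 18.4, -5.13 and -22.8, and the 6 tumor libraries of the study at 43.0 to 111.

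AOM-DSS replicate 1, labelled as having no tumor, stood apart from the other libraries of both groups. Notum, a Wnt antagonist that Wnt-activated colon tumors make in large amounts, was at 0.098, 0.25 and 0.159 CPM with spermidine and at 15.0, 0.733 and 0.714 CPM without it, against 12.5 to 656 CPM in the tumor libraries. Mmp7, a matrix protease of Paneth cells and tumors, was at 0.719, 1.31 and 0.317 CPM with spermidine and at 79.2, 2.65 and 1.11 CPM without it. The same library was the highest of the 6 for the stem cell receptor Lgr5 and for the antimicrobial lysozyme Lyz1. The mean log2 CPM of 12 α-defensin and Paneth cell genes was -2.83, -2.99 and -3.79 with spermidine and 1.32, -2.28 and -2.92 without it, and for 18 Wnt target genes it was 2.34, 2.23 and 1.84 with spermidine and 4.44, 1.85 and 1.88 without it. Values without this library, that is, of 3 against 2 libraries, are therefore given beside the results that it moves.

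Across 19558 genes tested, edgeR's quasi-likelihood test called 0 at a Benjamini-Hochberg adjusted p under 0.05, and the smallest adjusted p was 0.641. At an unadjusted p under 0.05, 518 genes (2.65%) were higher and 591 (3.02%) lower with spermidine, 1109 in all (5.67%). DESeq2 on the same libraries called 47 (0.240%), 19 higher and 28 lower, of which 26 had 1 group at 0 counts in every library. In a count that overlaps this one, 21 of the 47 had both group means under 1 CPM. The median log2 fold change, spermidine over no spermidine, was -0.03 and the median standard error of a log2 fold change was 0.37. The 3 libraries of one group lay wholly above the 3 of the other for 1142 genes (5.84%) with spermidine higher and 1135 genes (5.80%) with spermidine lower. Without AOM-DSS replicate 1, edgeR called 1 of 20094 genes (0.00498%), Hoxd10, and 2225 genes (11.1%) had an unadjusted p under 0.05, 1357 higher (6.75%) and 868 lower (4.32%). No gene described below passed the adjusted threshold by edgeR in the comparison of 3 with 3 libraries, while DESeq2 called Setd1b, Rbm15, Kmt2e, Thap2, Rbm4, Zfp35, Fabp6, Cpne8, Tmem203, Pcsk5, Prkg2 and Sp5. The values below therefore describe these 6 libraries. Where p-values are given they are adjusted over all genes tested, and an unadjusted p under 0.05 enters only as a count.

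Most polyamine genes overlapped between the groups. Lower without overlap were 1 of 4 catabolic genes, 2 of 15 synthesis, antizyme and hypusination genes and 2 of 11 transport genes, against 5.80% of all genes. Smox was at 54.1, 47.5 and 46.6 CPM with spermidine and at 48.2, 50.7 and 41.8 CPM without it. The groups overlapped, with means of 49.4 ± 4.05 CPM with spermidine and 46.9 ± 4.61 CPM without it (SD, n = 3 each). The log2 fold change was 0.07 (95% interval -0.42 to 0.57; edgeR adjusted p = 0.975). Among the other catabolic enzymes, the polyamine oxidase Paox and the acetyltransferase Sat1 overlapped between the groups. Paox was at 14.4, 12.6 and 13.8 CPM with spermidine and at 18.3, 14.7 and 13.2 CPM without it, and Sat1 at 209, 245 and 170 CPM with spermidine and at 161, 302 and 239 CPM without it. Sat2, a paralog of Sat1 counted at a low level, did not overlap, at 0.866, 1.08 and 0.952 CPM with spermidine and 1.48, 1.12 and 1.45 CPM without it. Of the 4 catabolic genes tested, 1 was higher and 3 lower, with a median log2 fold change of -0.17.

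The synthesis enzymes showed the same overlap. Odc1 was at 175, 141 and 151 CPM with spermidine and at 203, 167 and 129 CPM without it, and Amd1 at 138, 120 and 156 CPM with spermidine and at 151, 109 and 80.4 CPM without it. Srm was at 24.1, 16.3 and 19.1 CPM with spermidine and at 23.8, 15.7 and 9.18 CPM without it, and Sms at 20.4, 14.7 and 14.6 CPM with spermidine and at 20.7, 17.6 and 11 CPM without it. In each of these genes the lowest value belonged to AOM-DSS replicate 3 and the highest value without spermidine to AOM-DSS replicate 1, so the spread within the AOM-DSS group was wider than the distance between the groups. The antizyme Oaz1 was at 295, 304 and 285 CPM with spermidine and at 284, 363 and 289 CPM without it, and Eif5a at 634, 481 and 513 CPM with spermidine and at 701, 549 and 378 CPM without it. Mat2a, which makes S-adenosylmethionine, did not overlap, at 209, 209 and 274 CPM with spermidine and 276, 288 and 282 CPM without it. Of the transport genes, Slc3a2, the shared subunit of several amino acid exchangers, was lower without overlap, at 62.5, 64.4 and 51.7 CPM with spermidine and 72.7, 67.9 and 71.8 CPM without it. Over the whole lists, 5 of 15 synthesis, antizyme and hypusination genes were higher with a median log2 fold change of -0.09, and 5 of 11 transport genes were higher with a median of -0.06, both near the -0.03 of all genes tested. When AOM-DSS replicate 1 was left out, 8 of 15 and 7 of 11 were higher, with medians of 0.01 and 0.06.

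**Figure D1:**
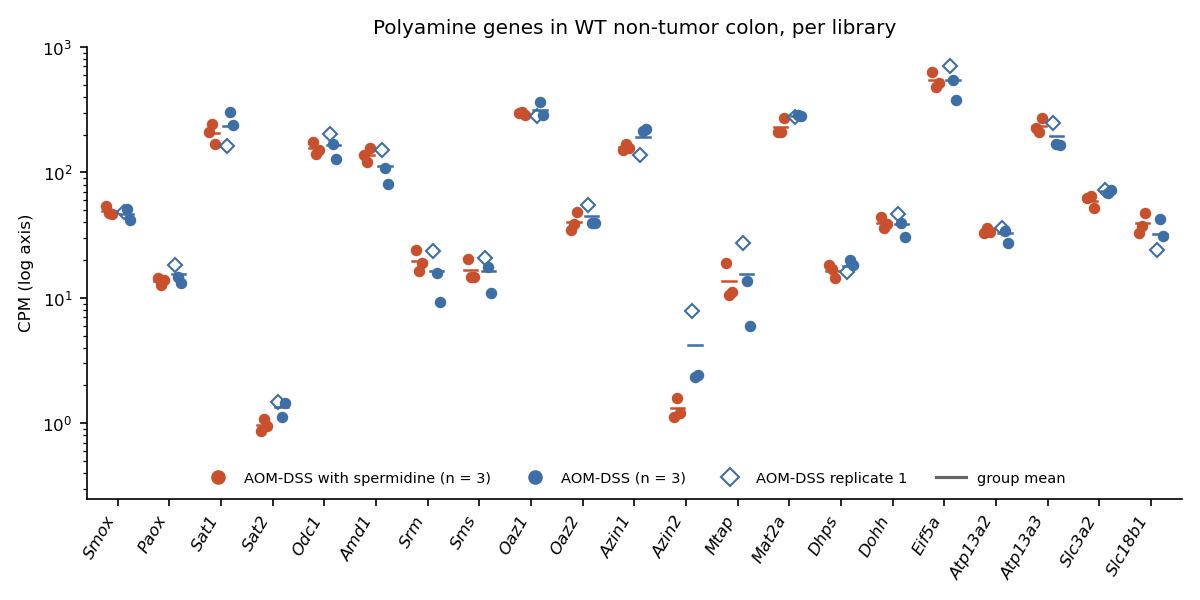
Polyamine genes in the 6 libraries. The y axis is CPM on a log axis, each point is 1 library, orange for AOM-DSS with spermidine and blue for AOM-DSS, the open diamond is AOM-DSS replicate 1, and horizontal lines are group means. The points of the groups overlap for Smox, and the 3 spermidine points of Azin2 lie below the 3 others.

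Azin2 was the polyamine gene with the smallest unadjusted p. This antizyme inhibitor, known from mouse brain and testis, was at 1.13, 1.6 and 1.21 CPM with spermidine, from 38 to 102 counts, and at 7.91, 2.34 and 2.44 CPM without it, from 130 to 453 counts. All 3 spermidine libraries were below all 3 AOM-DSS libraries, and AOM-DSS replicate 1 was far above the other two. The log2 fold change was -1.69 (SE 0.46; 95% interval -2.64 to -0.74; edgeR adjusted p = 0.722), and -0.89 without AOM-DSS replicate 1 (adjusted p = 0.441). The same direction was seen in 2 comparisons that share no library with this one. In WT colon without AOM-DSS, Azin2 was at 2.50, 1.97 and 2.73 CPM with spermidine and at 3.79, 4.47 and 7.39 CPM without it, and in Smox-/- non-tumor colon with AOM-DSS at 1.80, 1.53 and 1.75 CPM with spermidine and at 4.45, 7.17 and 3.17 CPM without it. In Smox-/- colon without AOM-DSS it ran the other way, at 3.82, 3.13 and 5.44 CPM with spermidine and 3.19, 2.67 and 2.02 CPM without it.

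Markers of enteric neurons and glia moved with Azin2 in each of these comparisons. Elavl4, a neuronal RNA-binding protein, was at 0.310, 1.74 and 0.571 CPM with spermidine and at 4.15, 2.02 and 3.29 CPM without it in WT AOM-DSS colon. In WT colon without AOM-DSS it was at 1.86, 1.86 and 3.64 CPM with spermidine and at 9.40, 6.95 and 26.2 CPM without it, and in Smox-/- AOM-DSS colon at 0.684, 2.68 and 3.06 CPM with spermidine and at 5.67, 11 and 4.12 CPM without it. In Smox-/- colon without AOM-DSS, where Azin2 was higher with spermidine, Elavl4 was higher too, at 10.9, 3.48 and 6.29 CPM with spermidine and 2.60, 0.953 and 0.952 CPM without it. Over the whole list of 15 neuron and glia genes the summed level was 17.1 to 55.2 CPM with spermidine and 77.7 to 100 CPM without it in WT AOM-DSS colon, and 1 listed gene was at 0 in 1 spermidine library. It was 56.1 to 102 CPM with spermidine and 182 to 680 CPM without it in WT colon without AOM-DSS, and 48.2 to 109 CPM with spermidine and 98.7 to 307 CPM without it in Smox-/- AOM-DSS colon. In Smox-/- colon without AOM-DSS it was 92.7 to 235 CPM with spermidine and 37.5 to 88.3 CPM without it. The part of the neural tissue in the Azin2 difference was not tested.

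**Figure D2:**
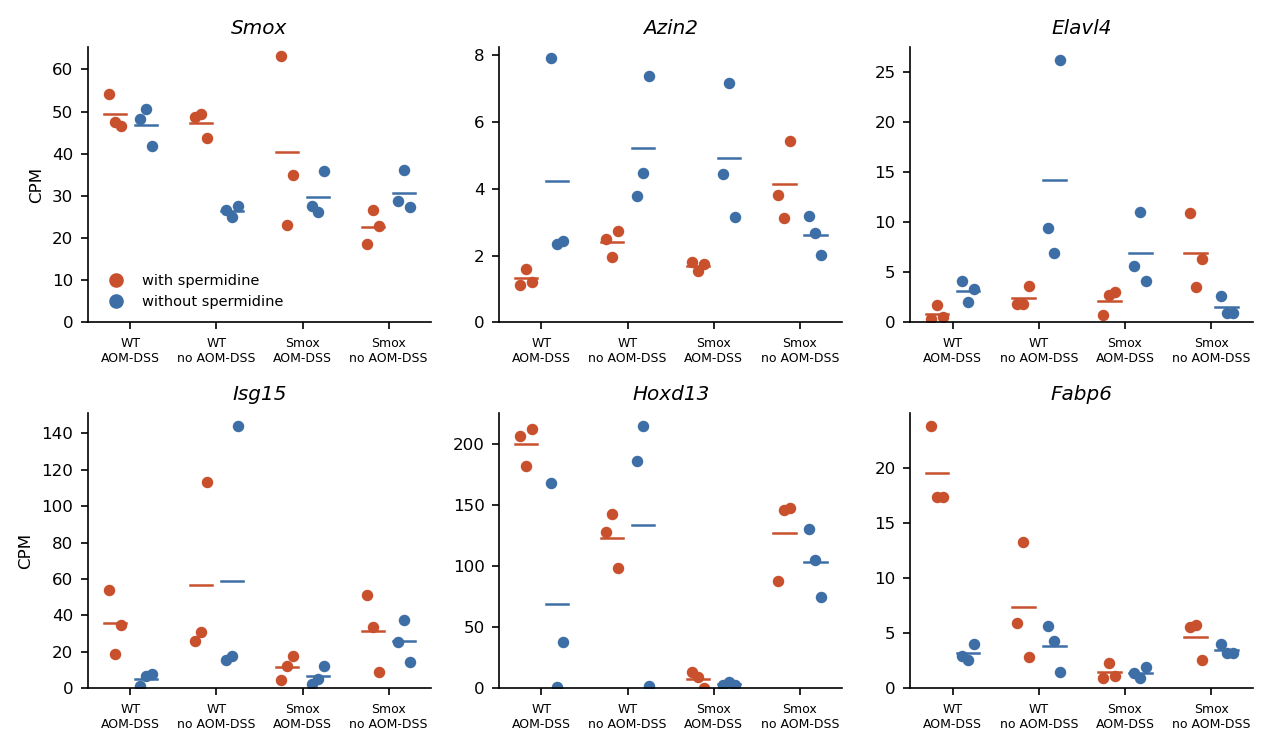
Smox, Azin2, Elavl4, Isg15, Hoxd13 and Fabp6 in the 8 non-tumor groups. The y axis is CPM, each point is 1 library, orange with spermidine and blue without it, for WT or Smox-/- mice with or without AOM-DSS, and horizontal lines are group means; Azin2 and Elavl4 are lower with spermidine in 3 pairs of groups and higher in Smox-/- mice without AOM-DSS, and Fabp6 stands out in WT mice given AOM-DSS with spermidine.

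Smox had a wider gap between the groups outside AOM-DSS. In WT colon without AOM-DSS it was at 48.8, 49.4 and 43.7 CPM with spermidine and at 26.7, 25.1 and 27.6 CPM without it, a log2 fold change of 0.84 (edgeR adjusted p = 0.124). Its level in all 6 AOM-DSS libraries, 41.8 to 54.1 CPM, overlapped that with spermidine alone. The difference between the spermidine log2 fold changes, with AOM-DSS minus without it, was -0.76 (interaction contrast, edgeR adjusted p = 0.971). The Smox-/- libraries without a tumor still had 18.6 to 63.1 CPM of Smox counts, so the deposited counts do not show the loss of the gene product. AOM-DSS with spermidine replicate 1 of the Smox-/- mice carried tumor markers, with Notum at 158 CPM against 0.268 and 0.216 CPM in its group, so values of that comparison include a library that stands apart.

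Genes next to the polyamine pathway gave no common direction. Of 15 genes of arginine, ornithine and the urea cycle, 6 were higher, with a median log2 fold change of -0.47, and of 18 genes of NRF2 and peroxide detoxification 5 were higher, with a median of -0.14. Both medians changed sign without AOM-DSS replicate 1, to 0.05 with 9 of 15 higher and to 0.09 with 10 of 18 higher. Of 12 aldehyde clearance genes, 6 were higher, with a median of -0.02, and 7 with a median of 0.08 without that library. Arg1, which makes ornithine from arginine, was at 0.751, 0.547 and 0.190 CPM with spermidine and at 10.2, 1.69 and 0.620 CPM without it, with the high value in AOM-DSS replicate 1. Nqo1, a quinone reductase and NRF2 target, did not overlap, at 33.5, 31.5 and 30.5 CPM with spermidine and 45.8, 39.8 and 38.0 CPM without it. Cps1, the entry enzyme of the urea cycle in liver and intestine, was higher without overlap, at 25.3, 25.1 and 36.8 CPM with spermidine and 16.5, 6.26 and 8.55 CPM without it (log2 fold change 1.48, edgeR adjusted p = 0.862).

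Interferon-stimulated genes were higher with spermidine. Interferons act through transcription factors, interferon regulatory factors among them, which bind an interferon-stimulated response element in target promoters, and the targets code for antiviral and antigen-processing proteins. All 16 genes of the list had a log2 fold change above 0, against 45.5% of all genes tested, and their median was 1.82 against -0.03. For 13 of the 16 all 3 spermidine libraries lay above all 3 AOM-DSS libraries, against 5.84% of all genes, and 8 had an unadjusted p under 0.05, against 2.65%. Their smallest adjusted p was 0.850. The list had been drawn up with earlier results of these data known, and no test of the list as a whole was made.

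The promoters of 5 of these 8 genes are shown because each holds the core of the response element, 2 TTTC units with 2 bases between them (TTTCNNTTTC, or GAAANNGAAA on the other strand). Each sequence is the 160 bases before the RefSeq start of the gene in GRCm38.p6, 5′ to 3′ on the strand of the gene, and capitals mark every match. Neighbouring matches can overlap and then form 1 run of capitals.

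Isg15: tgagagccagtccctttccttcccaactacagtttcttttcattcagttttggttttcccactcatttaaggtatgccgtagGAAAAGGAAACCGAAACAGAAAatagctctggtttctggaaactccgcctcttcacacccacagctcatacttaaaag
Ifit1: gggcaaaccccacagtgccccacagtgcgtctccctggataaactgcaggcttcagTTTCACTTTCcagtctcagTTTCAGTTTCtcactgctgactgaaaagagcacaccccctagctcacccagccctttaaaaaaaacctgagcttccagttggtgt
Ifit3: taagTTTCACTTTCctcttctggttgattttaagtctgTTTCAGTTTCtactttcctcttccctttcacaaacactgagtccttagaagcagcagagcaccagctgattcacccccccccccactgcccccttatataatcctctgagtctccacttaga
Gbp2: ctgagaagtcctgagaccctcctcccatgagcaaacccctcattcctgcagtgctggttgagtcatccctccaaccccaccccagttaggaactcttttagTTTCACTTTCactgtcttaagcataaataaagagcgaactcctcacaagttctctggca
Gbp3: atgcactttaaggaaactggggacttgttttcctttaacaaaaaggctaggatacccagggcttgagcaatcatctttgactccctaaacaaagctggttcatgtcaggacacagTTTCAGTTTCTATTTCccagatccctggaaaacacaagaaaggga

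The windows are chr4:156200819-156200978 on the minus strand for Isg15, chr19:34640729-34640888 on the plus strand for Ifit1, chr19:34583369-34583528 on the plus strand for Ifit3, chr3:142620503-142620662 on the plus strand for Gbp2 and chr3:142559884-142560043 on the plus strand for Gbp3. The Isg15 window has 3 overlapping matches, which begin 66 to 78 bases before the start. Ifit1 has 2 separate matches, at 85 and 104 bases, Ifit3 has 2, at 122 and 156 bases, Gbp2 has 1, at 59 bases, and Gbp3 has 2 that overlap, at 39 and 45 bases. Searched over the 250 bases before the start on both strands, 936 of 27025 mouse genes in the promoter table (3.46%) had a match, and 7 of the 12 listed interferon-stimulated genes found there did (58.3%). The 5 without one were Ifit2, Irf7, Oasl2, Irf1 and Ddx58. Such a match describes letters and does not show binding in this tissue.

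Isg15, a ubiquitin-like modifier, was at 53.7, 18.6 and 35.0 CPM with spermidine and at 1.40, 6.63 and 7.93 CPM without it. The lowest spermidine library was above the highest AOM-DSS library, and AOM-DSS replicate 1, at 80 counts, was the lowest of the 6. The means were 35.8 ± 17.6 CPM with spermidine and 5.32 ± 3.46 CPM without it (SD, n = 3 each), a log2 fold change of 2.75 (SE 0.93; 95% interval 0.83 to 4.67; edgeR adjusted p = 0.850). Without AOM-DSS replicate 1 it was 2.27 (edgeR adjusted p = 0.428).

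Ifit1, which binds viral RNA, was at 47.4, 17.1 and 40.4 CPM with spermidine and at 0.733, 6.11 and 13.4 CPM without it, a log2 fold change of 2.37 (edgeR adjusted p = 0.862). Its neighbour Ifit3 was at 21.9, 9.35 and 13.2 CPM with spermidine and at 0.943, 4.06 and 5.17 CPM without it, a log2 fold change of 2.13 (adjusted p = 0.862). Oasl2, of the oligoadenylate synthetase family, was at 146, 62.0 and 110 CPM with spermidine and at 2.78, 28.5 and 36.7 CPM without it, a log2 fold change of 2.23 (adjusted p = 0.862). Usp18, which removes Isg15 from proteins and dampens interferon signalling, was at 12.2, 3.50 and 8.13 CPM with spermidine and at 0.890, 1.74 and 1.64 CPM without it, a log2 fold change of 2.48 (adjusted p = 0.850). In these 4 genes the libraries kept one pattern, with spermidine replicate 2 the lowest of its group and AOM-DSS replicate 1 the lowest of all. The guanylate-binding GTPase Gbp2 was at 109, 60.4 and 36.8 CPM with spermidine and at 9.78, 8.98 and 26.5 CPM without it, and Gbp3 at 31.8, 11.9 and 14.6 CPM with spermidine and at 3.09, 3.75 and 4.72 CPM without it, a log2 fold change of 2.34 (adjusted p = 0.850). The RNA sensor Ddx58 was at 25.9, 19.4 and 24.6 CPM with spermidine and at 8.12, 14.0 and 14.4 CPM without it, a log2 fold change of 0.94 (adjusted p = 0.862). The Ifit, Oas and Gbp genes have close paralogs, so the share of counts assigned to each is less certain than for Isg15 or Usp18.

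For both interferon regulatory factors of the list the groups overlapped. Irf7, the regulator of late interferon-α genes, was at 144, 79.8 and 110 CPM with spermidine and 12.6, 70.1 and 111 CPM without it. Irf1 was at 230, 251 and 182 CPM with spermidine and 85.0, 201 and 281 CPM without it, and its log2 fold change turned from 0.23 to -0.16 when AOM-DSS replicate 1 was left out. Over the list without that library, 15 of 16 genes were higher, the median was 1.32, and 13 of 16 did not overlap, against 18.4% of all genes for 3 against 2 libraries. Of the 8 genes with an unadjusted p under 0.05, 1 kept it, Isg15. That is 1 of 16 genes of the list, near the 6.75% of all genes higher at this threshold without that library.

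**Figure D3:**
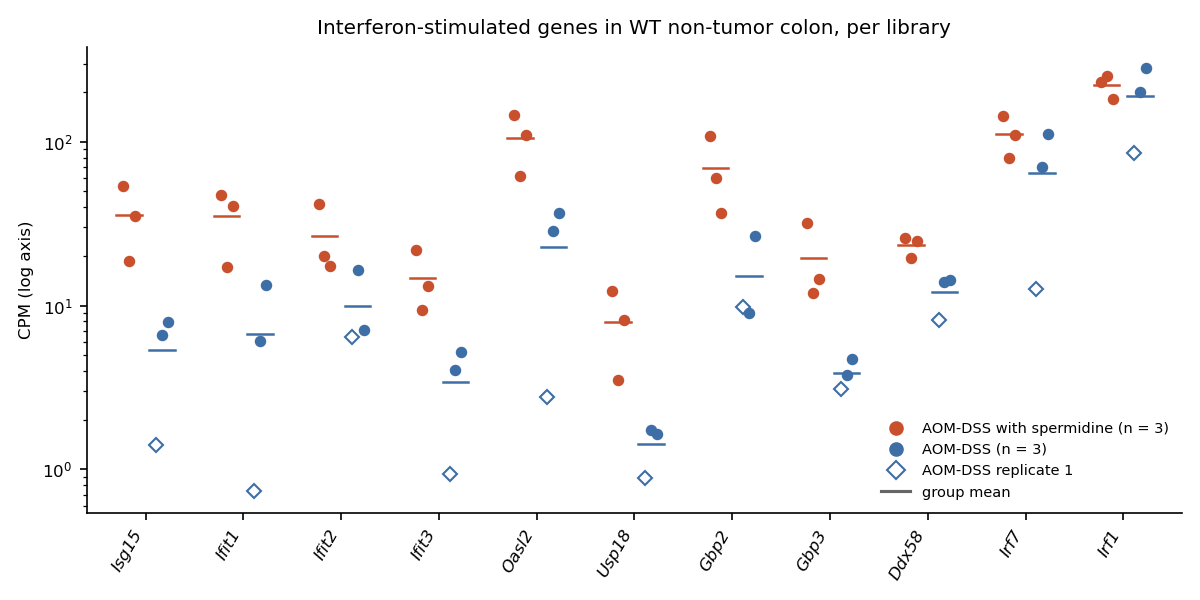
The interferon-stimulated genes named in the text in the 6 libraries. The y axis is CPM on a log axis, each point is 1 library, orange for AOM-DSS with spermidine and blue for AOM-DSS, the open diamond is AOM-DSS replicate 1, and horizontal lines are group means; the groups overlap for Irf7 and Irf1 and not for the other genes shown, and the open diamond is the lowest point for each gene shown but Gbp2.

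Across the study, the summed level of the 16 genes was 734 to 1163 CPM in the WT AOM-DSS libraries with spermidine and 198 to 661 CPM in those without. WT colon without AOM-DSS had 930 to 1727 CPM with spermidine and 607 to 2585 CPM without it. For Isg15 alone, the level with spermidine during AOM-DSS, 18.6 to 53.7 CPM, lay within the 15.3 to 144 CPM of untreated WT colon. Its AOM-DSS libraries without spermidine lay below that range. The summed list did not separate in this way. Its 198 to 661 CPM in AOM-DSS without spermidine overlapped the 607 to 2585 CPM of untreated WT colon. In Smox-/- mice with AOM-DSS, Isg15 overlapped, at 4.70, 12.0 and 17.9 CPM with spermidine and 2.31, 4.86 and 12.5 CPM without it. The spermidine log2 fold change of Isg15 with AOM-DSS minus without it was 2.80 in WT mice (interaction contrast, edgeR adjusted p = 0.971), and that in WT minus Smox-/- mice with AOM-DSS was 1.93 (edgeR adjusted p = 1). These contrasts share the 6 libraries described here.

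Genes of neutrophils and acute inflammation were lower with spermidine, and AOM-DSS replicate 1 had the highest mean level of the list. The list's mean log2 CPM was 2.46 there and lowest, at -1.08, in AOM-DSS with spermidine replicate 3, the library with the fewest counts. All 20 of the list had a log2 fold change below 0, against 54.0% of all genes tested, with a median of -1.72, and 3 of 20 did not overlap, against 5.80% of all genes. Lcn2, an iron-scavenging protein of inflamed epithelium and neutrophils, was at 0.719, 0.438 and 0.476 CPM with spermidine and at 19.2, 2.16 and 0.808 CPM without it, without overlap (log2 fold change -3.75, edgeR adjusted p = 0.850). S100a8, a subunit of calprotectin, was at 2.12, 1.09 and 0.0952 CPM with spermidine and at 23.4, 3.54 and 1.32 CPM without it. Saa3, an acute-phase protein, was at 2.21, 0.985 and 0.317 CPM with spermidine and at 45.6, 4.85 and 0.545 CPM without it. For S100a8 and Saa3 the groups overlapped, and AOM-DSS replicate 1 was more than the sum of the other 5 libraries.

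Without that library the list's median was -0.65, 16 of 20 genes were lower, 0 had an unadjusted p under 0.05, and Lcn2 stood at -1.44. Saa1, which the colon epithelium makes in large amounts, followed another order, at 502, 694 and 551 CPM with spermidine and 513, 469 and 1369 CPM without it. The cytokine Il6 was at 0.0327, 0.0313 and 0 CPM with spermidine and at 1.19, 0.384 and 0 CPM without it, and Tnf overlapped, at 2.35, 1.74 and 2.03 CPM with spermidine and 6.53, 2.67 and 1.62 CPM without it. Of 20 chemokines 8 were higher, with a median log2 fold change of -0.79, and -0.11 without AOM-DSS replicate 1.

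The α-defensins and other Paneth cell products were also highest in that library. The mouse colon normally lacks Paneth cells, and these genes were high in the tumors of the study, at a sum of 480 to 3083 CPM. All 12 were lower with spermidine, with a median log2 fold change of -4.45, and -1.18 with 8 of 12 lower once AOM-DSS replicate 1 was left out. Lyz1 was at 7.42, 9.82 and 4.06 CPM with spermidine and at 179, 4.17 and 4.32 CPM without it, so its log2 fold change of -3.13 became 0.73 without the high library. Defa24 was at 0.0980, 0.0469 and 0 CPM with spermidine and at 7.31, 0.401 and 0.150 CPM without it, and α-defensins share so much sequence that counts of single members are uncertain.

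Wnt target genes split in a similar way. Of 18, 7 were higher with spermidine and the median was -0.47; without AOM-DSS replicate 1, 12 were higher and the median was 0.47. The antagonists Notum and Dkk2 and the transcription factor Sp5 were lower without overlap in the 3 against 3 libraries, and their log2 fold changes without that library were -2.09 for Notum, -2.33 for Dkk2 and -1.51 for Sp5, against -4.99, -2.79 and -4.87 with it. Of 12 stem and crypt base genes, 8 were higher both with and without that library, with a median of 0.08 with it and 0.61 without it. Lgr5 changed sign. It was at 3.19, 6.13 and 8.73 CPM with spermidine and at 41.5, 1.59 and 0.752 CPM without it, a log2 fold change of -1.29 with AOM-DSS replicate 1 and of 2.34 without it (edgeR adjusted p = 0.430). Ephb3, a receptor that positions crypt cells, was at 70.8, 53.8 and 72.8 CPM with spermidine and at 62.2, 31.8 and 27.0 CPM without it, with log2 fold changes of 0.71 with that library and 1.14 without it (edgeR adjusted p = 0.370).

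**Figure D4:**
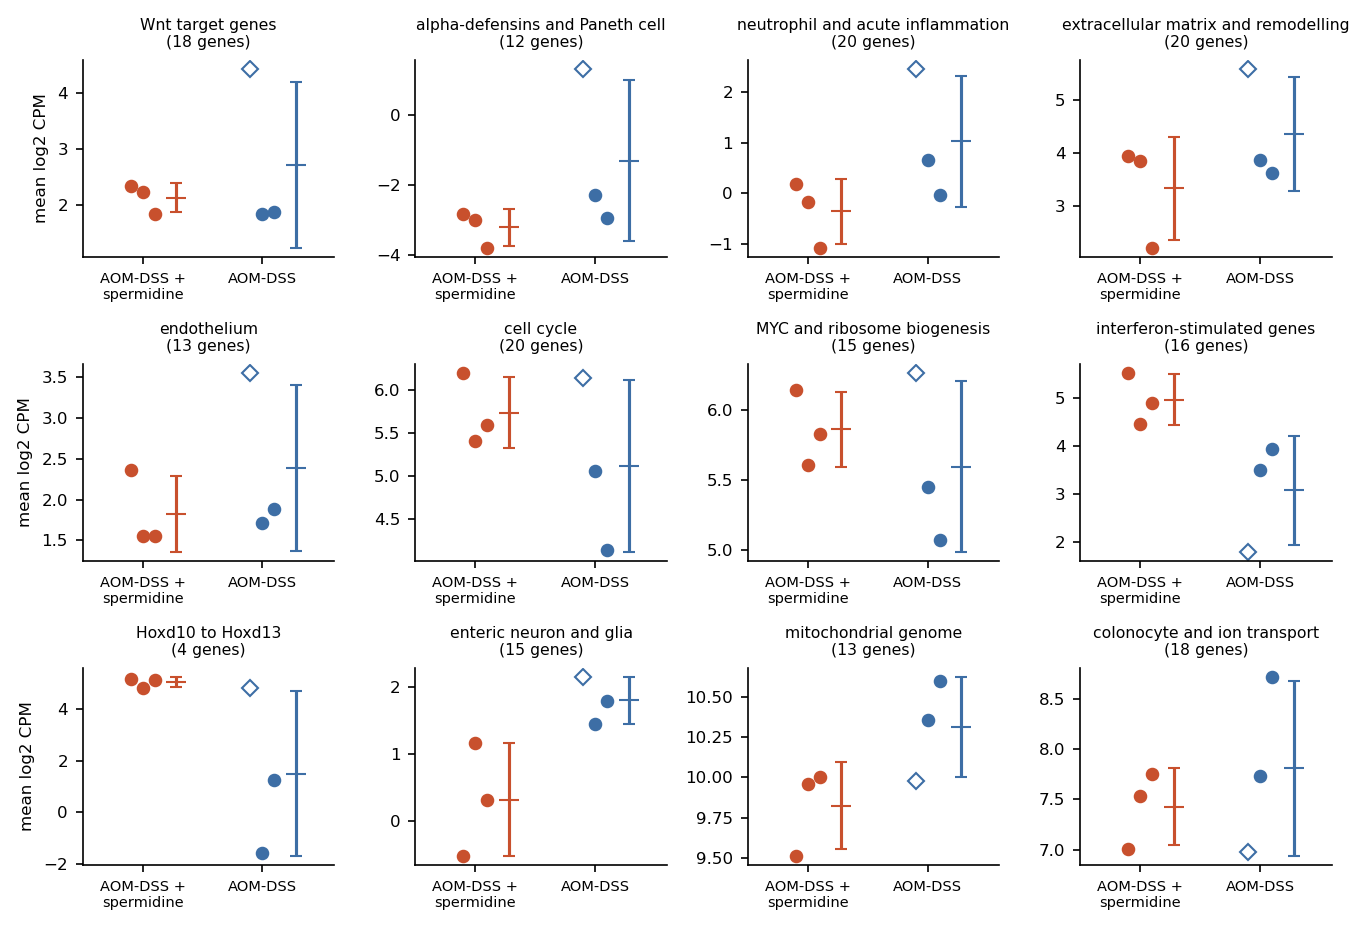
Mean log2 CPM of 12 gene lists in each of the 6 libraries. Orange points are AOM-DSS with spermidine, blue points AOM-DSS, and the open diamond AOM-DSS replicate 1; beside them the group mean with a bar of 1 SD (n = 3 each), on a separate y axis for each list. The open diamond is far above the other points for Wnt target, α-defensin, neutrophil and matrix genes and is the lowest for interferon-stimulated genes.

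Stroma and vessel genes were also highest in AOM-DSS replicate 1. The mean log2 CPM of 20 extracellular matrix and remodelling genes was 3.95, 3.85 and 2.21 with spermidine and 5.59, 3.88 and 3.62 without it, and that of 13 endothelial genes 2.36, 1.56 and 1.55 with spermidine and 3.55, 1.71 and 1.89 without it. The median log2 fold changes were -0.89 and -0.92 with that library, and -0.15 and -0.08 without it. In bulk tissue, fewer cells of a type and less RNA per cell cannot be told apart. B and plasma cell genes varied within both groups, with a mean log2 CPM of 0.16, 3.66 and -0.99 with spermidine and 0.94, 3.45 and 3.58 without it. Of 18 T and NK cell genes 4 were higher, with a median of -0.19, and of 15 macrophage genes 2 were higher, with a median of -0.58. The medians without AOM-DSS replicate 1 were -1.06 for B and plasma cells, against -0.54 with it, -0.29 for T and NK cells and -0.29 for macrophages. AOM-DSS with spermidine replicate 3, the library with the fewest counts, was the lowest for matrix, macrophage, chemokine and B and plasma cell genes. Its mean log2 CPM was 1.24 for macrophage genes, against 2.08 to 3.27 in the other libraries. For chemokines it was -0.63, against 0.37 to 1.59. The part of this library and its depth in the lower medians was not tested.

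Cell cycle genes lay above 0 in every case but overlapped between the groups. Mki67, which marks dividing cells, was at 353, 189 and 284 CPM with spermidine and at 313, 164 and 96.2 CPM without it. The means were 275 ± 82.3 CPM with spermidine and 191 ± 111 CPM without it (SD, n = 3 each), a log2 fold change of 0.53 (edgeR adjusted p = 0.901). Top2a, the mitotic topoisomerase, was at 250, 137 and 170 CPM with spermidine and at 242, 90.9 and 50.4 CPM without it, and Mcm5 of the replicative helicase at 104, 53.2 and 43.5 CPM with spermidine and at 90.8, 28.3 and 17.3 CPM without it. All 20 listed genes had a log2 fold change above 0, with a median of 0.46, 0 of them without overlap and 0 with an unadjusted p under 0.05.

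AOM-DSS replicate 1 was near the highest spermidine library for these genes. It was the highest of its group, with a mean log2 CPM of 6.14 against 5.06 and 4.15, so leaving it out widens the gap between the groups. Genes of 1 list that vary together are also not independent observations. Without AOM-DSS replicate 1 the median was 1.08, and 18 of 20 genes did not overlap, against 18.4% of all genes. Of the 20, 17 had an unadjusted p under 0.05, against 6.75% of all genes. The log2 fold change of Mki67 was then 1.07 (edgeR adjusted p = 0.371). For 15 genes of MYC and ribosome biogenesis the median was 0.14, with 0 of them without overlap and 0 with an unadjusted p under 0.05. Without that library the median was 0.58, and 9 of 15 had an unadjusted p under 0.05, against 6.75% of all genes. The library left out was again the highest of its group, at a mean log2 CPM of 6.27 against 5.45 and 5.07, so the same limits hold. Myc itself was at 45.7, 24.3 and 36.8 CPM with spermidine and at 37.4, 16.7 and 17.1 CPM without it. With the mean log2 CPM of distal hindgut genes as a covariate, the log2 fold changes of Mki67, Top2a, Mcm5 and Myc were -0.03, -0.26, -0.29 and -0.01. That level itself was at 4.37, 4.07 and 4.31 with spermidine and at 4.17, 1.23 and 2.44 without it. AOM-DSS replicate 1 lay within the spermidine range, and the other libraries of its group lay below it. With 1 library without spermidine in that range, spermidine and this level were only weakly separated in these 6 libraries. Whether this level reflects the sampled position was not tested.

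Distal Hox genes of the D cluster were low in AOM-DSS replicates 2 and 3. These genes encode positional identity along the hindgut. Hoxd13 was at 207, 182 and 213 CPM with spermidine and at 168, 1.47 and 38.3 CPM without it, and Hoxd11 at 30.8, 23.2 and 29.8 CPM with spermidine and at 23.4, 0.262 and 1.67 CPM without it. Hoxd10 was at 12.7, 12.2 and 12.6 CPM with spermidine and at 7.47, 0.140 and 0.978 CPM without it, without overlap (log2 fold change 2.12, SE 0.72; edgeR adjusted p = 0.850). Without AOM-DSS replicate 1, the highest of its group for this gene, its log2 fold change was 4.43 (edgeR adjusted p = 0.0193). Hoxa13 and Hoxb13, of the A and B clusters, did not share the low values of AOM-DSS replicates 2 and 3. Hoxa13 overlapped, at 77.0, 75.1 and 91.4 CPM with spermidine and 63.3, 71.1 and 79.4 CPM without it. Hoxb13 was higher without overlap, at 448, 438 and 591 CPM with spermidine and 368, 409 and 426 CPM without it. Of the 9 distal hindgut genes tested, 8 were higher with spermidine, with a median log2 fold change of 1.28. Among them 3 did not overlap, against 5.84% of all genes. Without AOM-DSS replicate 1 all 9 were higher. Low Hoxd13 also occurred elsewhere in the study: 1 untreated WT library had 1.94 CPM, and the Smox-/- AOM-DSS libraries had 0.126 to 13.2 CPM with spermidine and 2.31 to 5.39 CPM without it. The part of the sampled position in the comparison was not tested.

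Enteric neuron and glia genes were lower with spermidine. All 15 had a log2 fold change below 0, with a median of -1.22, 10 did not overlap, against 5.80% of all genes, and 3 had an unadjusted p under 0.05, against 3.02%. All 15 were again below 0 without AOM-DSS replicate 1, with a median of -1.11, and 10 did not overlap, against 16.2% of all genes, but 0 had an unadjusted p under 0.05 by edgeR, against 4.32%. Uchl1, an abundant neuronal deubiquitinase, was at 1.76, 5.97 and 3.37 CPM with spermidine and at 13.2, 6.80 and 12.6 CPM without it (log2 fold change -1.55, edgeR adjusted p = 0.862). Vip, the neuropeptide that relaxes gut muscle, was at 1.27, 9.09 and 3.11 CPM with spermidine and at 15.9, 18.2 and 22.2 CPM without it. The summed level of the list was 17.1, 55.2 and 24.7 CPM with spermidine and 100, 77.7 and 95.8 CPM without it, with no overlap. Smooth muscle genes, which lie in the same wall layer, did not separate the groups in this comparison. Their mean log2 CPM was 6.77, 6.61 and 6.38 with spermidine and 7.59, 5.11 and 6.72 without it. In WT colon without AOM-DSS all 15 smooth muscle genes were lower without overlap, against 14.2% of all genes, with a median of -1.06. In Smox-/- AOM-DSS colon 14 of 15 were lower, with a median of -0.52, and 0 without overlap, against 8.29%. The part of the muscle wall in the neuron and glia differences was not tested.

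Of the spermidine comparisons of the study, which share no library, 3 were counted together: WT with AOM-DSS, WT without it and Smox-/- with AOM-DSS. Smox-/- without AOM-DSS, where Azin2 and the neuron and glia list ran the other way, was not part of this count. In each of the 3 counted, 75 genes (0.383%) were lower and 41 (0.210%) higher with spermidine with no overlap. The lower set held Azin2 and neuronal genes, among them Elavl4, Elavl3 and the neurofilament-type gene Prph. Elavl4 had log2 fold changes of -1.84, -2.53 and -1.69 in WT with AOM-DSS, WT without it and Smox-/- with AOM-DSS. The higher set held Setd1b and Dot1l, an H3K79 methyltransferase named here after its values were seen. Dot1l was at 69.7, 59.2 and 71.5 CPM with spermidine and at 55.7, 45.4 and 49.6 CPM without it in WT AOM-DSS colon, and its log2 fold changes in the 3 comparisons were 0.41, 0.46 and 0.43. The median exon length of the 41 higher genes was 5934 bases and that of the 75 lower ones 4157 bases, against 3695 bases over all genes tested.

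Setd1b, an H3K4 methyltransferase, had the smallest p of the genes higher with spermidine. It was at 66.3, 61.2 and 67.3 CPM with spermidine and at 46.0, 33.9 and 40.3 CPM without it, with a wide gap between the groups. The means were 64.9 ± 3.27 CPM with spermidine and 40.1 ± 6.06 CPM without it (SD, n = 3 each), a log2 fold change of 0.70 (SE 0.14; edgeR adjusted p = 0.641; DESeq2 adjusted p = 0.00219). Kmt2e, a SET-domain chromatin protein, was at 113, 110 and 115 CPM with spermidine and at 87.2, 85.1 and 82.9 CPM without it, a log2 fold change of 0.41 (edgeR adjusted p = 0.641). The other 6 genes with the smallest p among those higher were the RNA-binding Rbm15 and Rbm4, the zinc finger genes Thap2 and Zfp35, the adaptor Crkl and Ccdc117, with log2 fold changes of 0.41 to 0.77 and an edgeR adjusted p of 0.641 each. No overlap was a condition for naming these 8. Without AOM-DSS replicate 1 their log2 fold changes were 0.40 to 0.81. Genes higher at an unadjusted p under 0.05 had a median exon length of 5586 bases and genes lower 3136 bases, against 3695 bases over all genes tested with a length, and the order was the same without AOM-DSS replicate 1, at 4929, 3016 and 3625 bases. The part of transcript length in these differences was not tested.

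Among genes lower with spermidine that met the conditions for naming, Cpne8, a calcium-dependent membrane-binding protein, had the smallest p. It was at 2.91, 6.18 and 2.79 CPM with spermidine and at 11.7, 19.4 and 15.5 CPM without it, a log2 fold change of -1.97 (SE 0.48; edgeR adjusted p = 0.641). Ctsl, a lysosomal protease, was at 130, 144 and 128 CPM with spermidine and at 162, 191 and 233 CPM without it, a log2 fold change of -0.54 (edgeR adjusted p = 0.722). Pcsk5, a proprotein convertase, was at 0.784, 0.876 and 0.127 CPM with spermidine and at 2.06, 9.86 and 6.17 CPM without it, a log2 fold change of -3.26, and it was lowest of its group in AOM-DSS replicate 1. Prkg2, a cGMP-dependent kinase, and Sp5 rested on that library, with log2 fold changes of -4.68 and -4.87 with it and of -2.59 and -1.51 without it. Tmem203, Atp1b3, a subunit of the sodium pump, and Azin2 made up the 8, whose adjusted p ranged from 0.641 to 0.827.

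Mature epithelial genes leaned lower. Of 18 colonocyte and ion transport genes 16 were below 0, with a median log2 fold change of -0.56, and 1 of 18 did not overlap, near the 5.80% of all genes. Leaving out AOM-DSS replicate 1, the lowest of its group for these genes, 8 of 18 did not, against 16.2% of all genes. The sodium-proton exchanger Slc9a3 was at 11.5, 39.0 and 45.8 CPM with spermidine and at 37.0, 103 and 425 CPM without it, a log2 fold change of -2.55 (edgeR adjusted p = 0.850), with the high value in AOM-DSS replicate 3. Car1, a carbonic anhydrase of surface colonocytes, did not overlap, at 562, 514 and 604 CPM with spermidine and 991, 859 and 1552 CPM without it. Prom1, a membrane glycoprotein of crypt and surface cells, is not one of these 18 genes. It was at 85.3, 150 and 103 CPM with spermidine and at 146, 369 and 313 CPM without it, a log2 fold change of -1.29 (edgeR adjusted p = 0.850), with overlap. Goblet cell genes had a median of -0.05 with 11 of 16 lower, and of -0.44 with 12 of 16 lower without AOM-DSS replicate 1.

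The 13 messenger RNAs of the mitochondrial genome were all lower, with a median log2 fold change of -0.52, and 3 of 13 did not overlap, against 5.80% of all genes. mt-Nd1, a complex I subunit, was at 1743, 2133 and 2202 CPM with spermidine and at 2935, 3265 and 3476 CPM without it (log2 fold change -0.67, edgeR adjusted p = 0.862), and mt-Atp6 at 1835, 2490 and 2540 CPM with spermidine and at 2687, 3229 and 4098 CPM without it. The mitochondrial share of all counts was 2.57, 3.63 and 3.51% with spermidine and 3.65, 4.47 and 5.55% without it, with no overlap. These RNAs are copies of 1 genome processed from long transcripts, so the 13 genes are not 13 independent observations. Without AOM-DSS replicate 1 the median was -0.72.

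Enteroendocrine genes included several that were higher without overlap. Chgb, a granin of hormone-storing granules, was at 153, 221 and 143 CPM with spermidine and at 75.7, 76.5 and 89.2 CPM without it, and Chga at 64.4, 81.6 and 70.9 CPM with spermidine and at 55.4, 30.4 and 52.2 CPM without it. Tph1, which starts serotonin synthesis in enterochromaffin cells, was at 8.97, 11 and 13.7 CPM with spermidine and at 5.80, 4.17 and 8.46 CPM without it. The hormone genes Gcg, Pyy and Insl5 overlapped, and Sst and Nts were lower without overlap. Over the 15 genes 8 were higher, 5 without overlap, against 5.84% of all genes, and 2 were lower without overlap, against 5.80%. The median log2 fold change was 0.23.

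Fabp6, the bile acid-binding protein of ileal enterocytes, was higher with spermidine in WT AOM-DSS colon. It was at 23.8, 17.3 and 17.3 CPM with spermidine and at 2.92, 2.56 and 4.04 CPM without it, and every other non-tumor library of the study was at 0.908 to 13.3 CPM. The means were 19.5 ± 3.78 CPM with spermidine and 3.17 ± 0.772 CPM without it (SD, n = 3 each), a log2 fold change of 2.62 (SE 0.67; 95% interval 1.23 to 4.00; edgeR adjusted p = 0.722; DESeq2 adjusted p = 0.0179), and 2.52 without AOM-DSS replicate 1. The log2 fold changes in the other comparisons were 0.95 in WT colon without AOM-DSS and 0.01 in Smox-/- AOM-DSS colon. The difference between WT and Smox-/- mice given AOM-DSS was 2.61 (interaction contrast, edgeR adjusted p = 1). The 15 small intestine enterocyte genes as a list did not move with it, with a mean log2 CPM of 0.78, 1.01 and 0.86 with spermidine and 0.51, 0.89 and 1.41 without it.

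Of 16 immediate early genes, 3 were lower without overlap, against 5.80% of all genes. Dusp1, a MAP kinase phosphatase, was at 9.07, 8.92 and 13.6 CPM with spermidine and at 29.4, 18.1 and 27.5 CPM without it, a log2 fold change of -1.25 (SE 0.41; edgeR adjusted p = 0.850). The AP-1 subunit Jun was at 76.8, 79.0 and 86.0 CPM with spermidine and at 121, 125 and 185 CPM without it, a log2 fold change of -0.83 (edgeR adjusted p = 0.862), and Ier3 at 8.76, 9.04 and 5.81 CPM with spermidine and at 26.1, 19.4 and 10.5 CPM without it. Other members of the group overlapped, with Fos at 148, 147 and 125 CPM with spermidine and 88.3, 153 and 215 CPM without it. Of the 16 genes 12 were below 0, with a median of -0.34.

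**Figure D5:**
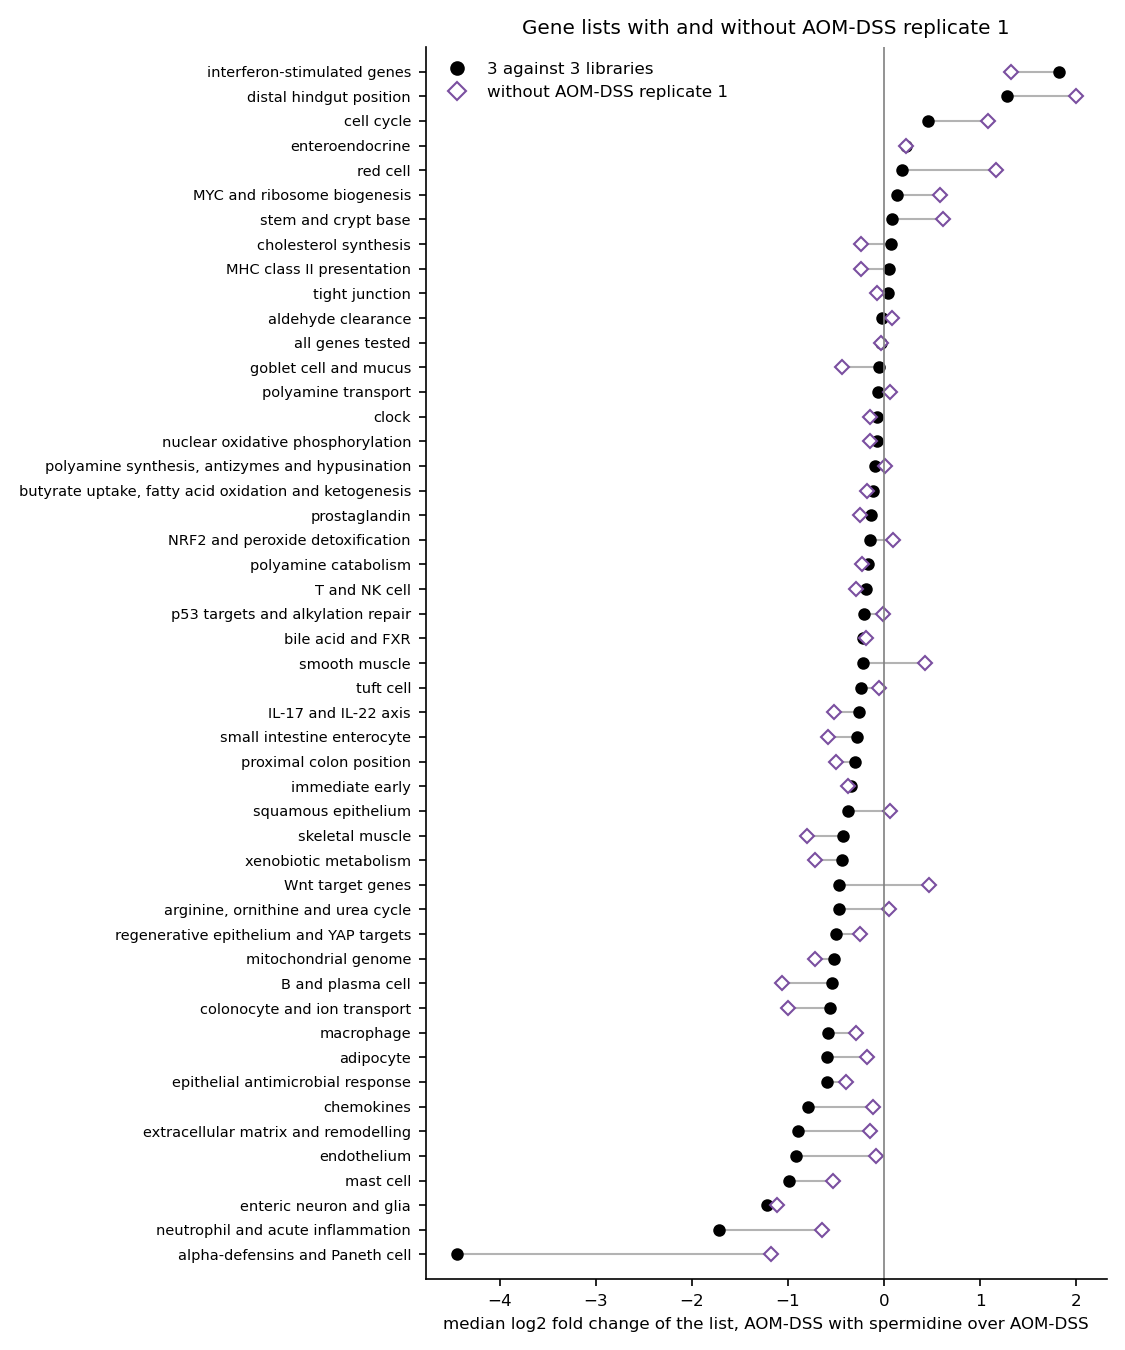
Median log2 fold change of each gene list, AOM-DSS with spermidine over AOM-DSS. Filled circles use all 6 libraries and open diamonds leave out AOM-DSS replicate 1, and the vertical line is 0; interferon-stimulated genes, enteric neuron and glia genes and immediate early genes keep their side, while Wnt target genes lie on opposite sides and the α-defensin list moves from -4.45 to -1.18.

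In the other spermidine comparisons of the study, edgeR also called few genes. In WT colon without AOM-DSS 1 gene passed (0.00511%), Tmx4, which was lower. DESeq2 called 904 there (4.62%), and 3152 genes (16.1%) had an unadjusted p under 0.05. In Smox-/- non-tumor colon with AOM-DSS edgeR called 0, against 421 by DESeq2 (2.15%), and 2676 genes (13.7%) had an unadjusted p under 0.05. The contrast of the spermidine effect in WT mice with AOM-DSS minus without it gave 0 calls by edgeR and 32 by DESeq2 (0.164%), and 956 genes (4.89%) had an unadjusted p under 0.05. The contrast of the effect during AOM-DSS in WT minus Smox-/- mice gave 0 by edgeR and 67 by DESeq2 (0.343%), and 820 (4.19%) had an unadjusted p under 0.05. Both contrasts share the 6 libraries described here.

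The interferon-stimulated list had a median log2 fold change of 1.82 in WT AOM-DSS colon, 0.10 in WT colon without AOM-DSS and 0.57 in Smox-/- AOM-DSS colon. In WT colon without AOM-DSS, 1 of 16 genes was higher at an unadjusted p under 0.05, against 5.42% of all genes, and 1 was higher without overlap, against 7.56%. In Smox-/- AOM-DSS colon 1 of 16 was higher at that threshold, against 7.53%, and 2 without overlap, against 7.84%. With AOM-DSS minus without it, 3 of 16 had a contrast above 0 at an unadjusted p under 0.05, against 3.02% of all genes, and for WT minus Smox-/- 4 of 16 did, against 1.14%.

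The neuron and glia list had medians of -1.22 in WT AOM-DSS colon, -2.20 in WT colon without AOM-DSS and -1.34 in Smox-/- AOM-DSS colon. In Smox-/- colon without AOM-DSS it ran the other way, with a mean log2 CPM of 2.84 ± 0.61 with spermidine and 1.09 ± 0.80 without it (SD, n = 3 each). In WT colon without AOM-DSS, 13 of 15 genes were lower at an unadjusted p under 0.05, against 10.7% of all genes, and all 15 were lower without overlap, against 14.2%. In Smox-/- AOM-DSS colon 4 of 15 were lower at that threshold, against 6.15%, and 5 without overlap, against 8.29%. For WT colon with AOM-DSS minus without it, the contrast was above 0 in all 15 genes, with a median of 0.90. At an unadjusted p under 0.05, 0 of 15 were above 0, against 3.02% of all genes, and 0 below it, against 1.87%. For WT minus Smox-/- mice, 8 of 15 were above 0, with a median of 0.14. At that threshold 0 of 15 were above 0, against 1.14% of all genes, and 0 below it, against 3.06%.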

How the data were processed

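Colon RNA of 30 libraries in 10 groups of 3 was analysed, and 6 of them carry the comparison. Libraries were made with a directional kit from total RNA, per the labels' protocols. The authors deposited 1 table of estimated counts per gene. The submitters' processing notes name fastp, Salmon, DESeq2 and GRCm38, with no versions. The table holds whole numbers for 31023 genes, of which 10546 without a symbol were named from GENCODE. Depth was 33060607 to 81011304 counts a library.

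Tests of the deposited counts used edgeR 4.0.16 under R 4.3.3 (TMM scaling, filterByExpr with a minimum count of 10 and total of 15, glmQLFit with robust estimation, glmQLFTest, Benjamini-Hochberg adjustment, two-sided) in 1 fit of all 30 libraries with a mean for each group, which share 1 estimate of the spread and leave 20 residual degrees of freedom. 19558 genes were tested and 11465 removed. The labels give no batch, cage, pairing or sampling position, and replicates are numbered in accession order. The design text gives 3 mice a group but does not tie a library to a mouse, so p-values measure the spread between these libraries. The steps were tested on simulated data.

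The 49 lists and the members were chosen with earlier results of these data known: 688 symbols, of which 668 were tested. Named genes are the polyamine genes, the 2 members of a list with the highest mean CPM, and, since edgeR called none, the 8 genes a direction with the smallest unadjusted p, with a floor of 2 CPM on the higher mean and of 3 total counts on the lower group, no overlap, and no predicted, immunoglobulin, mitochondrial, sex-linked marker or pseudogene entries. Other list members were named after their values were seen. Alternatives were RLE scaling, DESeq2 1.42.0, no filter or 1 CPM in 3 libraries, the groups compared alone, leaving out 2 atypical libraries (WT untreated replicate 3 and Smox-/- AOM-DSS with spermidine replicate 1), a positional covariate and leaving out each library. Promoters are from RefSeq (GRCm38.p6), and 4 of the 16 interferon-stimulated genes were not matched there. Results of some genes are not reported here.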

Additional observations from a re-analysis of the deposited data

How the results depend on the processing

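No paired analysis was possible because the labels give no replicate numbers that pair libraries: the numbers follow accession order. For WT non-tumor colon with AOM-DSS, edgeR called 0 genes under RLE scaling, either other filter, the 2 groups alone, without the atypical libraries and with the positional covariate, while DESeq2 called 47. Leaving out 1 library at a time gave 0 to 1 called and 511 to 2225 genes at an unadjusted p under 0.05. For WT colon without AOM-DSS (1 called), DESeq2 called 904, the groups alone 0, leaving out both atypical libraries 52, the covariate 66, and 1 library left out 0 to 7. For Smox-/- AOM-DSS colon (0 called), DESeq2 called 421, the 1 CPM filter 1, leaving out both atypical libraries 21, the covariate 21, leaving out both tumor-marker libraries 12, a choice made after seeing the data, and 1 library left out 0 to 10. The interaction contrasts had 32 and 67 calls by DESeq2, with 0 to 1 for WT minus Smox-/- when 1 library was left out. The causes were not tested.

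Of the log2 fold changes of single genes, 932 kept their direction and side of the threshold over all alternatives, 13 changed sign and 14 passed the threshold, 13 of these by DESeq2 and Hoxd10 without AOM-DSS replicate 1. Over single libraries left out, Smox ranged from -0.04 to 0.09, Irf1 from -0.16 to 0.63, Saa1 from -0.77 to 0.23, Lyz1 from -3.74 to 0.73 and Lgr5 from -1.91 to 2.34. The covariate turned Myc to -0.01, Mki67 to -0.03, Top2a to -0.26, Mcm5 to -0.29, Hoxd13 to -0.45, Hoxa13 to -2.02 and Hoxb13 to -3.26; the last 3 are part of the covariate. With 3 libraries a group and a median standard error of 0.37, small log2 fold changes were not detectable.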
